A study of Mus musculus with 2 samples.

Results

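Open chromatin at the promoters of isolated long noncoding RNA (lncRNA) genes was described in the mouse adrenal gland. The genes were those typed as lincRNA (between genes) or antisense in the basic set of GENCODE M21 on mm10 (GRCm38), each with every transcription start site (TSS) over 5 kb from every protein-coding TSS. Of 8813 lincRNA and antisense genes, 6910 were isolated in this sense. Peaks of DNase-seq, which finds open chromatin by where the enzyme DNase I cuts the DNA of nuclei, were taken from the longer of the 2 peak lists of each library. A gene was called open where such a peak lay within 1 kb of 1 of its TSSs in both libraries. This held for 1234 genes, 17.9% of the isolated ones, and their merged peaks gave 1511 of the 96584 open regions that the libraries shared. By the same call, 33.6% of all 55413 annotated genes were open. The tissue was adrenal gland of B6CASTF1/J males (the hybrid offspring of C57BL/6J and CAST/EiJ parents) of 8 to 10 months. Each library is 1 pool of 6 biosamples, the pools carry the same donor identifier, and the labels name no treatment. There is 1 group, so pools are set side by side with no test between samples.

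A promoter is the stretch of DNA around a TSS where RNA polymerase is loaded, and in active genes it is kept free of nucleosomes. Many lncRNA promoters lie next to those of protein-coding genes and may share their open chromatin, so isolated ones are easier to read on their own. Promoters rich in CpG, the dinucleotide that is often methylated, are typically open in many tissues, while CpG-poor promoters and enhancers tend to be open in fewer and to hold sites for factors of the cell type. In the adrenal cortex such a factor is NR5A1 (steroidogenic factor 1), which controls the genes of steroid synthesis. AP-1 factors (Fos and Jun proteins) bind many enhancers, and CTCF organises chromosome loops.

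Members with a region on an NR5A1 consensus match (CAAGGTCA on either strand) that a deposited footprint overlapped in both pools are shown first. They were put first because NR5A1 is a factor of the adrenal cortex. A match or a footprint does not tell which factor binds. Capitals mark the match, and each sequence is the C57BL/6J reference of RefSeq GRCm38.p6 along the strand of the gene, so the CAST/EiJ copies may differ.
Gm36033: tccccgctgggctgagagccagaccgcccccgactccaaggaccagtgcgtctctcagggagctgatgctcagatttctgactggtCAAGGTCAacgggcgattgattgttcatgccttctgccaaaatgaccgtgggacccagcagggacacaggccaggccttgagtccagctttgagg
Alkbh3os1: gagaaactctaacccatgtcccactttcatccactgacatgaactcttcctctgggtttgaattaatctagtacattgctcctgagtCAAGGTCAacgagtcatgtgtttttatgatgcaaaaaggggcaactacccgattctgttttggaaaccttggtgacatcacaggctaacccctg
Gm5532: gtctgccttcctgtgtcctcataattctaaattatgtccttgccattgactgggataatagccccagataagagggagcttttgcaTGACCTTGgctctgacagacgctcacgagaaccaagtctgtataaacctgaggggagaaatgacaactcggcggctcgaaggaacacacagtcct
A930006L05Rik: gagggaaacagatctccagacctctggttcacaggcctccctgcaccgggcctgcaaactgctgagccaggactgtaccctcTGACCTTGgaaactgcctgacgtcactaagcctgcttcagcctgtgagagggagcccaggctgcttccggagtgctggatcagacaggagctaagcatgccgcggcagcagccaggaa
These stretches lie at chr9:63927451-63927631 (minus strand), chr2:93979756-93979936 (plus), chr1:155527904-155528084 (minus) and chr9:96705661-96705860 (plus). The regions of Alkbh3os1 and A930006L05Rik cover a TSS, that of Gm36033 ends 109 bp from it and that of Gm5532 750 bp from it. They are the 4 regions of this kind with the most signal.

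A footprinted match of AP-1 (TGANTCA) or of CTCF is shown next in strong regions that cover a TSS. By the definition used below neither TSS is CpG-rich, but its window is wider than the stretches printed here. The printed stretch of Gm37885 is itself dense in GC, at 73.9%. The window round its TSS has 56.5% GC and an observed to expected CpG ratio of 0.501. Capitals mark the match.
Gm37170: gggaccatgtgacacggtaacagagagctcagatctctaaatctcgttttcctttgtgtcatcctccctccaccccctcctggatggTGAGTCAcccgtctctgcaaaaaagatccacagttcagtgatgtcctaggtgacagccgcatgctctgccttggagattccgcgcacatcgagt
Gm37885: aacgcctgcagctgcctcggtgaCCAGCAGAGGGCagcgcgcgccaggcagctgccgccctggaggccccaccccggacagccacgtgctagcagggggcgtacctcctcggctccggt
They lie at chr3:52198133-52198313 and chr1:182489861-182489979, both on the plus strand.

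Most of the strongest members lie in CpG-rich sequence. The next stretches run up to 90 bases to either side of a TSS inside its open region, with each CpG in capitals. 4932412D23Rik is the strongest gene whose region covers a TSS, and Neat1, Kcnq1ot1 and Snhg12 are members with well-known RNAs.
4932412D23Rik: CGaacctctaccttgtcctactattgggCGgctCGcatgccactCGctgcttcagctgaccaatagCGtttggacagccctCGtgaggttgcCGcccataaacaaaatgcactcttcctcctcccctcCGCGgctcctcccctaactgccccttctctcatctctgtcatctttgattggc
Neat1: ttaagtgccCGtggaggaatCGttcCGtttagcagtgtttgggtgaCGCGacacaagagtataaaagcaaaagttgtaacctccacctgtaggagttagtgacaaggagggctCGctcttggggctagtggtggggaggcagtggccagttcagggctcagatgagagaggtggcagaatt
Kcnq1ot1: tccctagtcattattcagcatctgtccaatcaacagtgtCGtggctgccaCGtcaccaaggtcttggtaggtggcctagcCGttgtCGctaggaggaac
Snhg12: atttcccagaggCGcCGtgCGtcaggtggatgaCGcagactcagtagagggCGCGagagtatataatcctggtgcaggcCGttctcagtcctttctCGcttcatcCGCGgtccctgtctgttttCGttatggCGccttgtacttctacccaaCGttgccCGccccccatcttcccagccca
They lie at chr16:42875650-42875830, chr19:5845388-5845568 and chr7:143296541-143296639, all on the minus strand, and at chr4:132308587-132308767 on the plus strand. They hold 9, 6, 4 and 14 CpG dinucleotides, and by the definition used below all but Neat1 have a CpG-rich TSS.

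Another kind of gene lies in some member regions. Gm11205 is the member with the most signal among those whose region both covers a TSS and overlaps a transfer RNA (tRNA) gene of the RefSeq annotation. The tRNA gene, for threonine, is in capitals.
Gm11205: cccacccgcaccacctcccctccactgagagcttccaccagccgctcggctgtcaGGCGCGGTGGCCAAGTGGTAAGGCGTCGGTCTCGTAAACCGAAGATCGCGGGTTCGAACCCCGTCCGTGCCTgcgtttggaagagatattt
This stretch lies at chr11:79704595-79704740 on the plus strand.

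The libraries held 117371 peaks in replicate 1 and 146307 in replicate 2, and no source used here gives their read depth. The authors' signal of a peak is a number of 0 or more whose scaling is not stated. Shared regions had more of it in replicate 2, with a median log2 ratio of 0.35. Promoter peaks at marker genes matched the labelled tissue. All 8 markers of the cortex were open, as were 6 of 7 of the medulla (not Pnmt), 3 of 4 of fibroblasts and mural cells and 2 of 4 of endothelium. None of 5 macrophage and lymphocyte, 2 Schwann, 2 fat and 4 other-organ markers was. By the same call 61.9% of all protein-coding genes were open, so these few markers are a coarse check. In a whole gland, fewer cells of a type with an open promoter and less opening per cell cannot be told apart.

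Replicate 1 had a promoter peak at 1333 isolated genes (19.3%) and replicate 2 at 1533 (22.2%). The 1234 genes open in both were 914 lincRNA genes, 17.5% of the isolated ones, and 320 antisense genes, 18.9%. Another 99 genes had a peak in replicate 1 alone and 299 in replicate 2 alone, with median signals of 0.424 and 0.376. Other gene classes give the scale, with no test of the difference. LncRNA genes within 5 kb of a protein-coding TSS were open in 1131 of 1903 cases (59.4%), and protein-coding genes in 13575 of 21938 (61.9%). At the limit of the rule the signals of genes on either side overlapped. Just inside it, A730035I17Rik, 5006 bp from a coding TSS, had 1.14 and 1.53 in replicates 1 and 2, Gm37584 (5040 bp) had 2.65 and 3.54, and Gm13441 (5073 bp) had 0.855 and 0.903. Just outside, Gm26669 (4960 bp) had 1.14 and 1.95, Gm16141 (4897 bp) 0.825 and 1.08, and Mir142hg (4964 bp) 1.14 and 0.60.

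The calls were not equally firm. The shorter peak list, whose threshold is not stated, had a promoter peak in both pools for 868 of the 6910 isolated genes (12.6%), against 29.4% of all annotated genes. Of the genes open by the longer list, it held 70.3% of the isolated lncRNA genes, 87.5% of all genes and 91.5% of the protein-coding ones. In the authors' table of cleavage, which lists intervals with a false discovery rate under 0.05, the promoter windows of 1233 open genes held a listed interval in each pool. Among the 5278 isolated genes with no peak in either pool, 1.02% and 1.52% did. At a rate of 0.001 or lower, 77.0% of open genes had an interval in replicate 1 and 87.3% in replicate 2. These shares describe the same cleavage that the peaks were called from and are no separate evidence of opening.

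Most open genes had 1 shared region in their promoter windows (957 genes), 212 had 2 and 55 had 3 or more. In 10 genes the peaks of the pools lay at a TSS but did not overlap, so that the gene had no shared region. Neighbouring members shared sequence too, since 44 regions served 70 genes. Neat1 and Frmd8os, which run in opposite directions, share 1 region.

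The open region was often not at the annotated start. In 492 of the 1224 genes with a shared region (40.2%) it covered a TSS, and in 643 (52.5%) it came within 100 bp. For open protein-coding genes these shares were 82.6% and 91.0%. The median distance from the region's edge to the TSS was 67 bp for isolated lncRNA genes and 0 for protein-coding ones. The window bounds this distance, which was 0 with windows of 500 bp and 306 bp with windows of 2 kb, and it was 105 bp without replicate 2. Protein-coding genes have more annotated TSSs each (median 2 against 1), which raises their chance of a TSS near a peak. Per TSS, a shared region covered the position 100 bp upstream in 7.71% of isolated lncRNA TSSs, open or not. This share was 34.4% at lncRNA TSSs near coding ones and 44.9% at protein-coding TSSs. At 5 kb upstream of isolated lncRNA TSSs it was 1.27%. The number of open isolated genes also moved with the window, from 936 with windows of 500 bp to 1653 with windows of 2 kb. Since regions lie away from TSSs too, some calls may not mark a promoter, and how many was not tested.

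**Figure D1:**
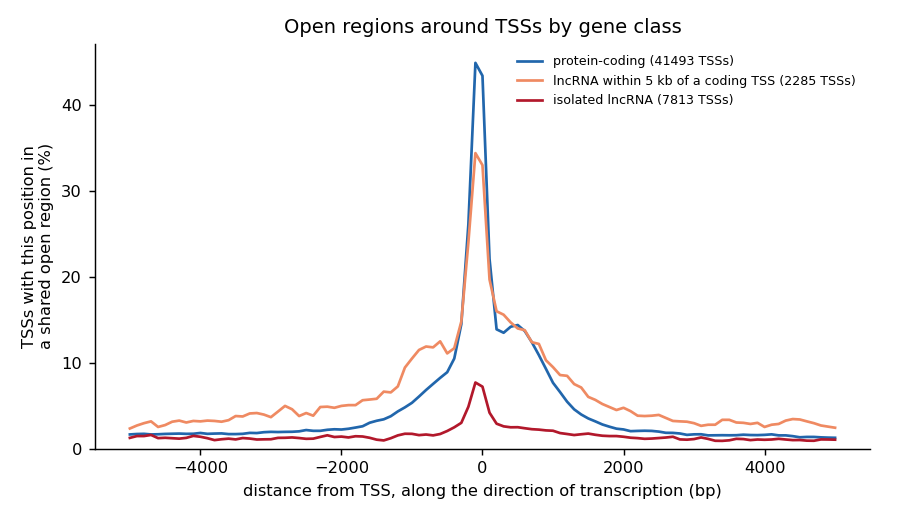
Share of TSSs (vertical axis, percent) whose position at a given distance (horizontal axis, bp, upstream to the left) lies in an open region shared by both pools, for 3 classes of genes with all their annotated TSSs. All 3 classes peak just upstream of the TSS, at 7.71% for isolated lncRNA genes and 44.9% for protein-coding genes.

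The promoter signal of an open gene was taken as its highest peak within 1 kb of a TSS. Its median over isolated lncRNA genes was 0.907 in replicate 1 and 1.17 in replicate 2. Open protein-coding genes had medians of 3.01 and 4.08, and open lncRNA genes near a coding TSS 2.65 and 3.58. The median isolated promoter ranked at the 62.4th and 69.4th percentile of all peaks of its pool. The middle 80% of members ran from 0.349 to 3.08 in replicate 1 and from 0.416 to 4.03 in replicate 2.

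CpG content divided the members. A promoter was called CpG-rich where the TSS base with 250 bp on either side had at least 50% GC and an observed to expected CpG ratio of at least 0.6. This was so for 144 open isolated genes (11.7%), for 1.5% of the isolated genes with no peak and for 76.5% of open protein-coding genes. The 118 CpG-rich members with a region within 100 bp of a TSS had a median signal of 3.04 and 3.86. The 525 other members at a TSS had 0.944 and 1.29, and the 581 whose nearest region was farther off had 0.743 and 0.991. CpG-rich protein-coding promoters open at a TSS had 3.71 and 4.96, and the CpG-poor ones 1.60 and 2.05. The gap between the lncRNA and coding medians was smaller within a CpG class at a TSS than over all open genes. This holds for genes with a region within 100 bp of a TSS, so CpG content and distance were not separated. Without that limit the CpG-rich members had 2.46 and 3.55 and the other members 0.836 and 1.09. A count by region takes each region once, though a gene with more open TSSs can still add more regions. By this count, CpG-rich member regions had medians of 1.90 and 2.79 and CpG-rich protein-coding promoter regions 2.35 and 3.25. Outside CpG-rich sequence the values were 0.817 and 1.06 against 0.892 and 1.12, while distal regions had 0.713 and 0.903. Distal regions are those whose middle lies over 1 kb from every TSS, so a member region at the edge of its window can count as distal too. Over both kinds of sequence together, member regions had 0.884 and 1.14 and protein-coding promoter regions 1.55 and 2.10.

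**Figure D2:**
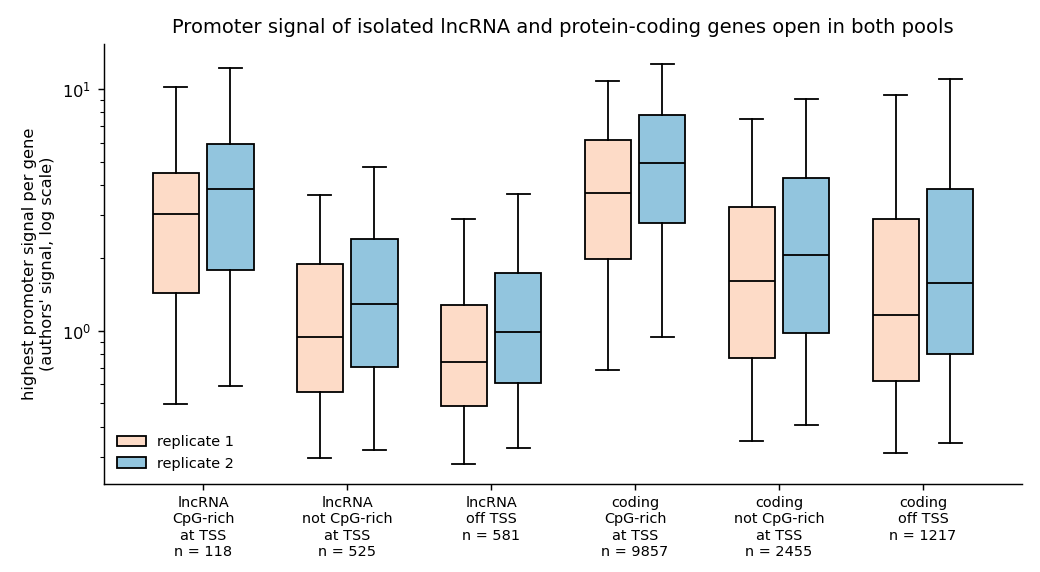
Highest promoter signal per gene (vertical axis, the authors' signal on a log scale) for isolated lncRNA and protein-coding genes open in both pools, split by CpG content and by whether the nearest region lies within 100 bp of a TSS. Boxes span the middle 50% of genes with the median as a line, whiskers run from the 5th to the 95th percentile, and CpG-rich lncRNA promoters (medians 3.04 and 3.86) stand above the other lncRNA promoters.

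The ends of the ranking differed in the same features. Of the 123 strongest members 52.8% were CpG-rich, 80.5% had a region within 100 bp of a TSS and all were open by the shorter list. In the 123 weakest these shares were 4.07%, 45.0% and 10.6%.

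Gm42418 on chromosome 17 had the most signal of any member, 51.6 in replicate 1 and 75.8 in replicate 2. Its region (39846781 to 39846920) lies 38 bp from the TSS and inside a gene that GENCODE types as ribosomal RNA, a family with many near-identical copies, so its value is uncertain. No other member exceeded 15.8. The lincRNA gene 6720427I07Rik on chromosome 13 had 12.7 and 15.8, with a region 41 bp from its TSS. Its nearest protein-coding TSS, that of A830005F24Rik, lies 32930 bp away. The 900 bp region of 4932412D23Rik on chromosome 16 had 12.7 and 13.9. It covers a TSS of this lincRNA gene and also a start that RefSeq, but not GENCODE basic, gives to an mRNA of Zbtb20, which encodes a zinc finger transcription factor. For this gene isolation therefore depends on the annotation.

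The other 7 of the 10 strongest genes were alike in both pools. 1700096K18Rik had 11.9 and 14.8, 1700113A16Rik 12.3 and 13.6, and Gm20732, with a GC content of 76.6% round its TSS, 11.3 and 13.1. Gm10010 had 10.7 and 12.2, Gm33195 10.1 and 12.2, 9430037G07Rik 9.75 and 11.3 and Gm17552 9.70 and 11.4. Of the 10 genes, 9430037G07Rik alone was not CpG-rich at its TSS. Their nearest protein-coding TSSs lay between 5913 bp (Gm17552, nearest Carns1) and 104320 bp away (Gm20732, nearest Zfat), and 4 of the 10 nearest coding genes, Esp38, Cct8l1, Trim43a and Carns1, were not open. At the other end, Gm47684 (0.156 and 0.176), Gm28928 (0.215 and 0.168), Gm44784 (0.208 and 0.192), 1700003L19Rik (0.230 and 0.168) and Gm47843 (0.223 and 0.20) were the 5 weakest. None of these 5 was CpG-rich or open by the shorter list.

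**Figure D3:**
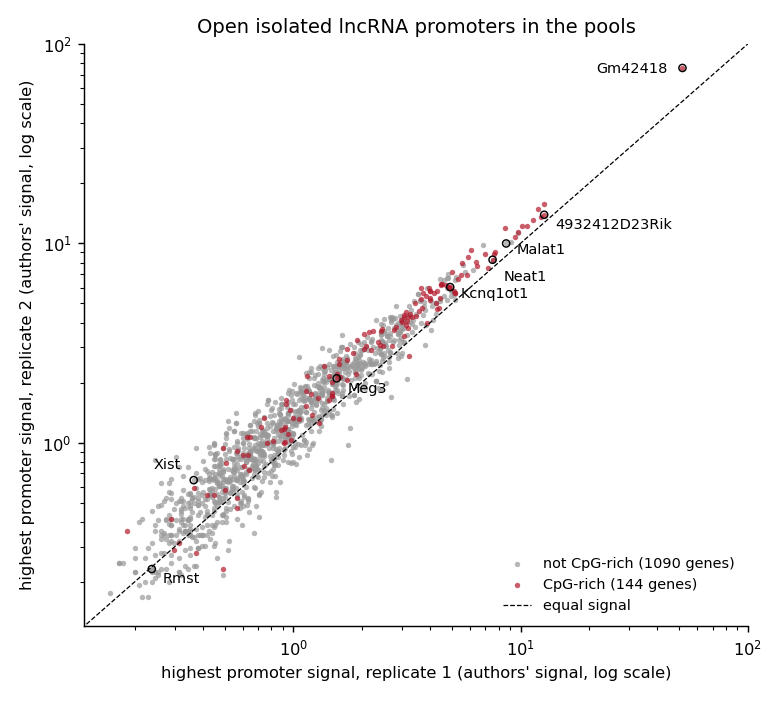
Highest promoter signal of each of the 1234 open isolated lncRNA genes in replicate 1 (horizontal axis) and replicate 2 (vertical axis), both the authors' signal on a log scale, with CpG-rich genes in red and 8 genes named. Most points lie above the line of equal signal, and Gm42418 stands apart at 51.6 and 75.8.

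Lists of lncRNA genes with known RNAs held 37 isolated genes, of which 24 were open in both pools, 2 in 1 pool and 11 in neither. Over all isolated genes 17.9% were open, and the lists were made of well-studied genes, so their counts are a description. RNAs of nuclear bodies and other abundant lncRNAs came first. Malat1, whose RNA gathers in nuclear speckles, reached 8.64 in replicate 1 and 9.98 in replicate 2 in a region 889 bp from the nearest of its 4 TSSs, and another region covers a TSS. Neat1, the scaffold of paraspeckles, had 7.53 and 8.27 over its start. The lncRNA genes 2900097C17Rik (1.14 and 1.82) and 1700001L05Rik (1.19 and 1.76) were lower, and Miat was not open.

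In some imprinted domains a lncRNA expressed from 1 parental copy silences genes in cis. Kcnq1ot1, which starts inside Kcnq1, had 4.90 and 6.03. Airn, which starts inside Igf2r, had 1.87 and 2.65, and Meg3 1.55 and 2.10. The start of H19 and that of Mirg had no peak. The data do not separate the parental copies.

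In the X-inactivation centre Ftx, a positive regulator of Xist, had the highest signal of any member on chromosome X, 5.32 and 6.59. Jpx, another activator of Xist, had 0.884 and 1.15. Xist, the RNA that coats the inactive X of females, met the rule only through a region 920 bp from its TSS with 0.364 and 0.648, and Tsix, its antisense, was closed. The Xist region holds a CTCF match and was absent from the shorter list.

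Host genes of small RNAs came in 2 families, whose counts are too small to compare. The 3 isolated hosts of small nucleolar RNAs, which guide the modification of ribosomal RNA, were all open over their start: Snhg6 (3.26 and 4.41), Snhg12 (3.08 and 4.27) and Snhg20 (2.04 and 3.50). All 3 are CpG-rich. Of 7 isolated microRNA hosts 3 were open, Mir17hg (1.96 and 2.38), host of a growth-promoting cluster, Mir670hg (1.34 and 1.73) and Mir155hg (0.364 and 0.592), host of a microRNA of immune cells. None of these regions covered a TSS, the nearest being 14 bp off in Mir155hg. Mir124-2hg, Mir124a-1hg and Mir133a-1hg, hosts of neuronal and muscle microRNAs, were closed, and Mir9-3hg had a peak in replicate 2 alone.

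All 4 isolated genes of the growth and p53 list were open. Lncpint had 2.45 and 3.23 and 5 regions, the most of any member along with E130102H24Rik. Epb41l4aos had 1.73 and 2.94, Trp53cor1, which lies beside the p53 target Cdkn1a, 1.49 and 1.77, and Pvt1, downstream of Myc, 0.929 and 1.63. Of these 4 genes Pvt1 alone was not open by the shorter list. Among 7 developmental genes Carmn, the host of smooth muscle microRNAs, had 2.47 and 2.65 at 904 bp from its TSS. Dnm3os (0.349 and 0.384) and Rmst (0.238 and 0.232) were near the lower end of members, and neither was open by the shorter list. Dlx6os1, Hotair and Halr1 were closed and Bvht had a peak in replicate 1 alone. Of the metabolic list Lncbate1, a lncRNA of brown fat, had 2.07 and 1.88 while Gm15441 was closed.

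**Figure D4:**
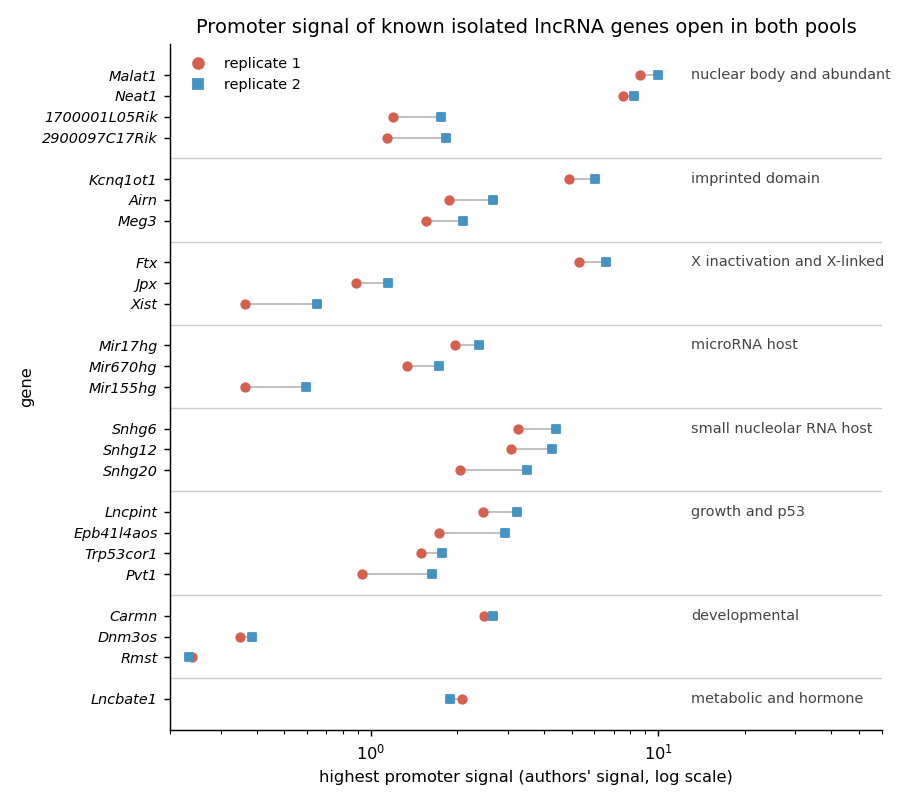
Highest promoter signal (horizontal axis, the authors' signal on a log scale) in replicate 1 (circles) and replicate 2 (squares) of the 24 open isolated genes of the lncRNA lists, grouped by list. Malat1, Neat1, Ftx and Kcnq1ot1 lie furthest right, and Rmst (0.238 and 0.232) furthest left.

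Isolated lncRNA genes whose nearest protein-coding gene was a marker of the cortex were open in 5 of 10 cases. Those nearest to other markers were open in 3 of 14, beside 17.9% of all isolated genes. Of the 5, 3 share the neighbour Fdx1, and only these were also open by the shorter list. Of the 3 nearest to other markers, Gm48719 was not open by that list. The contrast was not tested. Nearest does not mean close, since Gm45277 lies 538002 bp from the TSS of Cdh5. Sardhos, Gm39117 and Gm20069, nearest to the medulla markers Dbh, Th and Chga, were closed. Gm17322, 16630 bp from the TSS of Cyp11a1, the cholesterol side-chain cleavage enzyme, had a highest peak of 0.788 and 1.36. Its only shared region, 760 bp from its own TSS, had 0.788 and 1.06, and the gene was not open by the shorter list. Gm16130, also nearest to Cyp11a1, was closed. Near Fdx1, the electron donor of the mitochondrial steroid enzymes, Gm6980 had 1.63 and 2.49 over its TSS, 4933407I05Rik 0.951 and 1.78 and Arhgap20os 0.765 and 0.999. Near Scarb1, the receptor for high-density lipoprotein, Gm32585 had highest peaks of 1.63 and 3.46 within its window. They are not values of 1 pair of peaks, since the 3.46 belongs to a region 986 bp from the TSS with 2.62 in replicate 1, and the gene was not open by the shorter list. Gm40323, also nearest to Scarb1, was closed. The 3 isolated genes nearest Mc2r, the receptor for adrenocorticotropin, were closed.

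More generally, open members lay in open surroundings. The nearest protein-coding gene was open for 78.2% of members and for 64.6% of isolated genes with no peak. Within 50 kb of the TSS, members had a median of 5 distal regions and closed genes 3, and 6.32% of members had none against 25.6% of closed genes. Such surroundings were not particular to members. Open protein-coding genes had a median of 4 and 5.49% had none, and open lncRNA genes near a coding TSS had 4 and 4.24%. Members were nearer to the next coding TSS than closed genes, at a median of 48071 bp against 72146 bp. The TSS itself fell in repeat-masked sequence in 12% of members, in 31.5% of closed genes and in 6.65% of open coding genes. These features move together and their parts were not separated. The Y chromosome was kept in these counts. On it 1 of 549 isolated genes and 4 of 183 coding genes were open, so it adds mostly to the side that is not open. How far the contrasts rest on it was not tested.

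LincRNA and antisense members were close in signal, with medians of 0.929 and 1.22 against 0.855 and 1.11. A TSS inside a protein-coding gene was found for 35 of 914 lincRNA members (3.83%) and 241 of 320 antisense members (75.3%). The annotation of members was partly uncertain. Only 54.2% of their symbols appear in RefSeq, against 39.9% of those of closed genes, and 95.9% of members have more than 1 exon. In the full GENCODE set, which holds more transcripts than the basic one, 94 members (7.62%) had a coding TSS within 5 kb. In RefSeq, 85 of the 1511 member regions (5.63%) lay within 1 kb of the start of an mRNA and 767 (50.8%) within 1 kb of the start of a lncRNA. The 62 members behind those 85 regions included 11 of the strongest 123 and 17 of the 144 CpG-rich ones.

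Transfer RNA genes, which RNA polymerase III reads from promoter elements inside the gene, lay in a small set of member regions with high signal, looked for after the sequences of strong members were seen. Of the member regions, 10 (0.662%) overlapped a RefSeq tRNA gene, against 0.131% of protein-coding promoter regions and 0.20% of distal regions. Their signal ran from 1.66 to 5.50 in replicate 1 and from 3.29 to 7.97 in replicate 2, with medians of 3.62 and 5.90, and all 10 held a footprint in both pools. B230208H11Rik (a leucine tRNA, 5.50 and 7.97), AC154766.4 (arginine, 4.80 and 7.0) and Gm11205 (threonine, 4.53 and 6.23) were the highest. Of the 9 genes concerned 8 were among the 123 strongest members. Whether such regions open for the tRNA or for the lncRNA cannot be told apart. Without them the median signal of member regions was 0.877 and 1.14, against 0.884 and 1.14 with them. High signal over tRNA genes was not particular to members. The medians over tRNA genes were 3.96 and 5.61 in coding promoter regions and 2.53 and 3.89 in distal regions.

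Footprints are short stretches inside open regions that the enzyme cuts less than their surroundings. At least 1 deposited footprint overlapped 88.6% of member regions in replicate 1 and 88.3% in replicate 2. Protein-coding promoter regions had 86.3% and 83.9%, distal regions 87.1% and 87.3%. Footprints were more frequent at higher signal in every class, so the classes were also set side by side at like signal. At a signal from 0.5 to 1 in replicate 1, 88.9% of 521 member regions had a footprint in that pool, against 72.3% of coding promoter regions and 91.0% of distal regions. From 1 to 2 these shares were 96.3%, 87.1% and 97.4%. In these bands member regions lay nearer to distal regions than to coding promoters. Per kb of region there were 9.36 and 10.0 footprints in members, close to the 9.33 and 10.0 of all shared regions. Coding promoters had 11 and 11.6, distal regions 8.65 and 9.34.

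The region of 4932412D23Rik had the most footprints, 20 in replicate 1 and 24 in replicate 2. The shared region of Neat1 and Frmd8os had 17 and 12, that of 2410080I02Rik 15 and 11, Gm14321 12 and 12 and Gm15247 9 and 15. All 5 regions were at least 500 bp wide, against a median of 252 bp, so length goes with the count.

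Sequence motifs were counted within 150 bp of the middle base of each region, on both strands. Exact binomial intervals (95%) are given and cover counting error only, and regions are not independent of one another. The NR5A1 consensus was found in 85 of 1511 member regions, 5.63% (4.52% to 6.91%). It was in 2.03% of coding promoter regions, 8.14% of distal regions, 1.74% of the windows at closed isolated TSSs and 1.37% of windows of that length at 30751 TSSs, 1 for each lncRNA and coding gene. Outside CpG-rich sequence the shares were 6.39% (5.13% to 7.85%) in members, 3.80% (3.38% to 4.25%) in coding promoters and 8.30% (8.09% to 8.50%) in distal regions. There the share in members lay between those of coding promoters and distal regions, and the intervals did not overlap. Among the 196 CpG-rich member regions there was 1 match (0.510%, 0.0129% to 2.81%). That interval holds both the 1.05% of CpG-rich coding promoters and the 1.62% of CpG-rich distal regions. Over both kinds of sequence, member regions within 100 bp of a TSS had 4.45% (3.0% to 6.33%) and those farther off 6.52% (4.96% to 8.38%), an interval that holds the distal share of 8.14%. The interval of the nearer regions holds neither that share nor the 2.03% of coding promoters. Nearer and farther regions were not also split by CpG content.

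AP-1 matches followed the same order. Outside CpG-rich sequence TGANTCA was in 24.8% (22.5% to 27.2%) of member regions, 13.6% of coding promoters and 29.5% of distal regions, and in 6.76% of all TSS windows. For CTCF the shares were 5.4% (4.24% to 6.76%), 2.29% and 5.89%, and for AGATAAG, the string of GATA factors, 5.17% (4.04% to 6.51%), 3.30% and 6.01%. In both cases the member interval holds the distal share. CTCF matches were more frequent in member regions over 100 bp from a TSS (6.52%) than in those nearer (3.07%), with intervals of 4.96% to 8.38% and 1.88% to 4.70%. The glucocorticoid response element, searched as GNACA followed after 3 bases by TGTNC, was in 1.60%, 0.738% and 1.63%.

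Motifs frequent at coding promoters did not all stand alike. GGGCGGG, bound by SP and KLF factors, was in 12% of all member regions, 39.2% of coding promoters and 4.59% of distal regions, and in 27.6% of all TSS windows. Within CpG-rich regions it was in 43.9% (36.8% to 51.1%) of members and 51.1% of coding promoters. The ETS string CCGGAAG was in 8.13% of member regions within 100 bp of a TSS, in 2.44% of those farther off and in 13% of coding promoters. The cAMP response element TGACGTCA was in 5.10% (2.47% to 9.18%) of CpG-rich member regions and 3.22% of CpG-rich coding promoters, and in 0.913% and 1.28% of the others. CCAAT, the short NFY string, showed no such order, with 32.2% of members, 33.1% of coding promoters and 32.2% of distal regions. None of the strings spelled out contains another, and a match is not proof of binding.

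**Figure D5:**
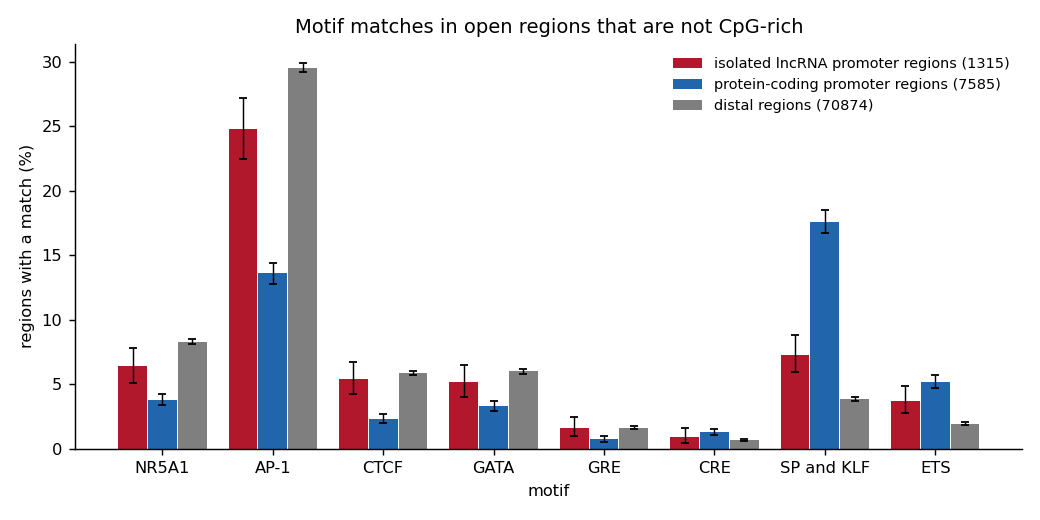
Share of open regions outside CpG-rich sequence with a motif match within 150 bp of their middle (vertical axis, percent) for 8 motifs in isolated lncRNA promoter regions, protein-coding promoter regions and distal regions, with exact 95% binomial intervals as bars. For NR5A1 and AP-1 the lncRNA regions (6.39% and 24.8%) lie between coding promoters (3.80% and 13.6%) and distal regions (8.30% and 29.5%).

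A footprint in both pools overlapped an NR5A1 match in 25 of the 85 member regions with 1 (29.4%), against 20.4% of coding and 30.3% of distal regions with a match. For CTCF it was 63 of 76 (82.9%), against 76.7% of coding and 74.0% of distal regions. For AP-1 it was 84 of 341 (24.6%), against 19.7% and 28.1%. The highest of the NR5A1 regions were those printed above: Gm36033 (4.46 and 6.26), Alkbh3os1 (4.12 and 4.13), Gm5532 (3.83 and 3.90) and A930006L05Rik (3.66 and 3.97). AC127690.1 (2.92 and 3.53) has its match 13 bp downstream of a TSS, and A630014C17Rik (3.0 and 2.82) 101 bp upstream of 1. BC043934, Gm53, 4930425O10Rik and 1700020I14Rik followed, with signals from 1.98 to 2.39 in replicate 1 and from 2.69 to 3.12 in replicate 2. Their matches lie at 515, 832, -715 and 544 bp from the TSS, negative values being upstream.

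Member regions differed between the pools much as all shared regions did. The log2 ratio of replicate 2 to replicate 1 had a median of 0.36 over member regions, with an SD of 0.36 (0.35 and 0.37 over all shared regions), and 99.3% of them lay within 2-fold of the median of all shared regions. Of the 1511 regions 250 were weaker in replicate 2, beside 16035 of all 96584. The largest ratios were 1.73 for Gm48281 (0.245 and 0.815), 1.36 for Gm35454, 1.34 for Gm41442, and 1.33 for Gm32568 and 1700095J12Rik. The lowest were -1.08 for Gm31138 (0.490 and 0.232), -0.93 for 1600027J07Rik, -0.85 for 1700060C20Rik, -0.84 for BC028471 and -0.83 for Gm16137. With 1 library a pool, none of these differences can be tested.

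By chromosome, 13.2% (chromosome 8) to 27.3% (chromosome 17) of the isolated autosomal genes were open. Of 115 isolated genes on the X chromosome 17 were open (14.8%), with median signals of 0.528 and 0.536, below the 0.907 and 1.17 of all members. Protein-coding genes were open in 45.9% of cases on the X, beside 50.8% (chromosome 14) to 72.9% (chromosome 12) on autosomes. A low share on the X is thus not particular to lncRNA genes. Whether the single X of male cells plays a part was not tested. In 10 of the 17 genes a region covered a TSS: Ftx, Gm15247 (2.44 and 3.63), 9530027J09Rik (2.41 and 3.10), Gm1720 (1.63 and 1.96), Jpx, Gm15726, Gm15138, Gm26652, F630028O10Rik and Gm15261 (0.201 and 0.264). On the Y chromosome 1 of 549 isolated genes was open, Gm28587, with 0.201 and 0.296, and without that chromosome the share of open isolated genes was 19.4%. Of 183 coding genes on the Y 4 were open (2.19%).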

How the data were processed

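For each of 2 pools of adrenal gland the authors deposited DNase-seq peaks, footprints and cleavage intervals with a false discovery rate, on mm10 per the labels and called from that pool alone. The aligner, the callers and the read depth are stated in no source used here. The authors' signal per peak, in the deposited lists, is 0 or more with an unstated scaling, so signal was compared mainly within a pool. The p-values in the deposited table are false discovery rates under 0.05, and the deposited footprint value is 1 constant, so footprints have no rank.

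Gene models were those of GENCODE M21 (basic) on 21 chromosomes. Peaks counted from an overlap of 1 bp, and shared regions are merged peaks that hold 1 of each pool. Where a peak is missing, cleavage may still be present below the threshold. Sequences and tRNA genes came from RefSeq GRCm38.p6, the same assembly. Scripts used Python 3.11.15, NumPy 2.4.6, SciPy 1.17.1, pysam 0.24.0, matplotlib 3.10.9, samtools 1.23.1 and bedtools 2.31.1, and the overlap and motif code was tested on simulated intervals and sequences. No test was run, since the series holds 1 group.

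Named were the isolated genes of 8 lncRNA lists, the 10 strongest and 5 weakest genes, the 5 regions with most footprints, up to 10 footprinted NR5A1 regions, 3 genes on each side of the 5 kb limit, 5 regions at each end of the ratio between pools, and X-linked genes with a region over a TSS. Genes nearest to tissue markers, those with tRNA genes and the examples of AP-1 and CTCF were chosen after their values were seen. The alternatives were another peak list, pool, window, limit of isolation, CpG definition and motif width. The members and lists were chosen with earlier results of these data known.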

Additional observations from a re-analysis of the deposited data

How the results depend on the processing

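Of 69 recomputed values of 6 results, 38 moved by less than the spread between pools (for counts, by less than 1.5 times). Keeping the top 50% of peaks by signal, 745 genes were open in place of 1234, the mean of the pool medians was 1.63 in place of 1.01, the CpG-rich share 16.2% in place of 11.7%, the footprint share 95.6% in place of 88.4% and the median distance to the TSS 24 bp in place of 67.0. With the shorter list, the last 4 of these were 1.42, 14.4%, 94.2% and 46.0 bp. These sets hold fewer weak peaks by construction. Using 1 pool alone gave median signals of 0.765 to 0.831, CpG-rich shares of 10.2% to 10.8%, footprint shares of 75.6% to 81.8%, NR5A1 shares of 5.02% to 5.61% (5.63% with both) and distances of 98.0 to 105 bp. The distance of 105 bp, without replicate 2, is over 1.5 times the main one. The CpG-rich share was 12.2% with as many peaks in both pools, 14.9% and 9.32% with windows of 500 bp and 2 kb, 10.9% and 12.2% with limits of 10 kb and 2 kb, and 5.92% with 55% GC and a ratio of 0.75. The footprint share was 90.9% with as many peaks in both pools, 89.4% with the window of 500 bp, 88.2% with the limit of 10 kb and 88.0% with coding TSSs of the full annotation. The distance was 0 and 306 bp with windows of 500 bp and 2 kb, which bound it by construction. NR5A1 was found in 6.13% with the window of 2 kb and in 4.10% within 75 bp of the middle base. For the other values the cause was not tested. The full annotation, and leaving out Gm42418, were chosen after seeing the data. The unknown depth limits what a missing peak says.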

Other observations

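Isolated genes whose symbol ends in os, with or without a number, a suffix given to transcripts opposite another gene, were open in 33 of 142 cases (23.2%), with median signals of 1.08 in replicate 1 and 1.25 in replicate 2. Among them were Nr6a1os, Tbx3os1, Tbx3os2, Egfros and Bach2os. Of 19 isolated Platr genes, a family named for its RNAs in pluripotent cells, Platr4 and Platr22 were open (10.5%), with median signals of 0.721 and 0.911. Over all isolated genes 17.9% were open. Both lists were chosen after the values were seen, and no test was run on them.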
